A study of Mus musculus with 12 samples.

Results

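The 10 genes described here encode proteins that take up, bind and activate fatty acids or cleave the lipids of lipoproteins: Lpl, Lipg, Fabp3, Fabp4, Fabp5, Acsl1, Slc27a1, Slc27a4, Vldlr and Pla2g7. They were chosen by name, with earlier results of these data known, and all 10 were found among the 43253 gene rows of the expression table. RNA was sequenced from 12 libraries of peritoneal macrophages (PMφs), 3 in each of 4 groups. The cells came from wild-type C57BL/6J mice of 8 to 12 wk, male and female, given 4% thioglycolate, and were collected by lavage on day 4 and kept as adherent cultures for 18 h. The groups were control PMφs with neither agent, PMφs given human oxidized low-density lipoprotein (oxLDL) at 100 µg/ml for 24 h, PMφs given ultrapure LPS at 10 ng/ml, and PMφs given oxLDL followed by LPS (oxLDL+LPS). The duration of LPS for these libraries was not given in the sources used here. By the study's methods, cells pooled from 1 or 2 litters in each experiment were divided among the 4 groups. A library is therefore taken as a pool of animals, although the number 1 libraries departed from this division, as given below. The comparisons ask how oxLDL accumulation changes expression in resting and in LPS-stimulated PMφs, and how LPS changes it in unloaded and in oxLDL-loaded PMφs.

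As background, lipoprotein lipase and endothelial lipase are secreted enzymes that hydrolyze the triglycerides and phospholipids of lipoproteins, and the VLDL receptor takes up the particles. Fatty acids that enter the cell are converted to acyl-CoA by long-chain acyl-CoA synthetases and the fatty acid transport proteins, and fatty acid binding proteins (FABPs) carry them through the cytosol. Pla2g7 encodes the plasma platelet-activating factor (PAF) acetylhydrolase, which removes short and oxidized acyl chains from phospholipids, including those of oxLDL. Macrophages are known to secrete lipoprotein lipase and to express FABP4 and FABP5.

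The values are normalized read counts, that is, read counts that were scaled with a single factor for each library and then rounded to whole numbers. The factors imply 16725738 to 26178431 reads per library. Normalized totals were 17152972 to 17709731 without LPS and 22071853 to 26384551 with LPS, so a difference between LPS states depends on the scaling. All 7 macrophage markers in the table exceeded 10 in every library, and all 7 adipocyte markers stayed at 10 or below in every library, with a summed level of 0 to 11. The 10 mesothelial and fibroblast markers summed to 4528 to 5396 in the replicate number 3 libraries, against 15881 to 27903 in number 1 and 13524 to 16279 in number 2. Replicate number 1 held 1 and 2 normalized counts of Xist in the control and oxLDL libraries but 6331 and 3812 in the LPS and oxLDL+LPS libraries. The Y-linked Ddx3y was at 1156 and 1132 in the former, which thus appeared male only, and at 459 and 439 in the latter. The number 1 libraries with and without LPS therefore did not come from the same pool of animals, which bears on the LPS comparisons. Within number 1, the LPS and oxLDL+LPS libraries also differed, with Xist at 6331 and 3812. Their mesothelial and fibroblast markers summed to 27903 and 15881. The part of this gap in the oxLDL differences of LPS-stimulated PMφs was not tested. The LPS results of the 10 genes and of the lists without both number 1 libraries are given below. Of the Y-linked genes, Uty, Kdm5d, Eif2s3y and Ddx3y were at 0 to 2 in all 4 number 2 libraries, and whether the sex of the pool took part in the number 2 values of Lpl, Pla2g7, Fabp3 and Lipg described below was not tested.

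LPS divided the 10 genes. Lipg, Fabp3 and Acsl1 rose, Fabp4, Fabp5 and Slc27a1 fell, and Slc27a4, Lpl, Vldlr and Pla2g7 did not pass the test in unloaded PMφs. The same 3 genes rose and the same 3 fell when oxLDL-loaded PMφs received LPS. oxLDL on its own accompanied higher Pla2g7 and, by a smaller margin, higher Lpl, and in LPS-stimulated PMφs it accompanied higher Pla2g7 and lower Lipg. With all 6 libraries of a comparison, these oxLDL differences passed the test when libraries of the same replicate number were compared as a block and not otherwise. Lipg also passed without the block when number 2 of the oxLDL+LPS group was left out (-3.38, adjusted p = 0.0621). In these bulk libraries, fewer cells expressing a gene and less RNA per cell cannot be told apart.

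**Figure D1:**
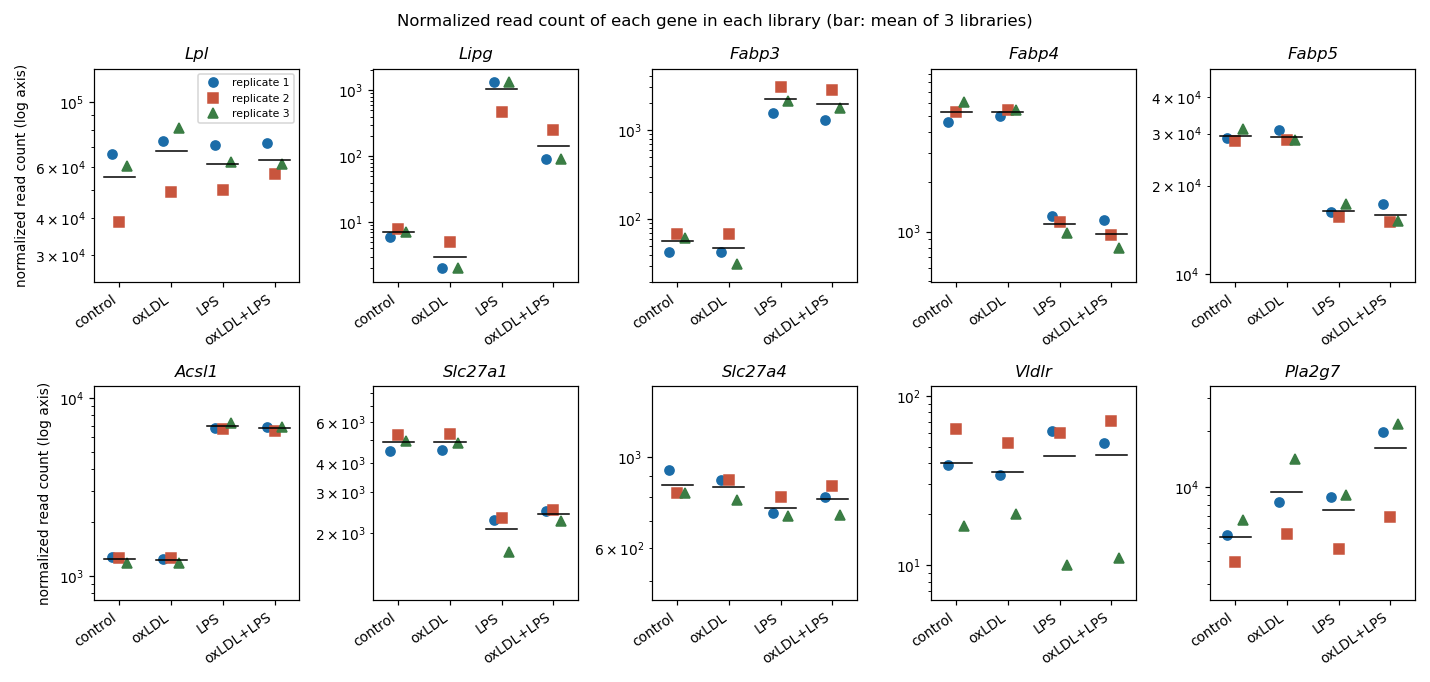
Normalized read count of each of the 10 genes (y axis, log scale, a different range in each panel) in the 4 groups (x axis). Each symbol is 1 library, its shape and color give the replicate number, and the bar is the mean of 3 libraries. Lipg, Fabp3 and Acsl1 sit higher, and Fabp4, Fabp5 and Slc27a1 lower, in all 6 LPS libraries than in all 6 libraries without LPS.

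Per kilobase of merged exon, the level of Fabp5 was the highest of the 10 in control PMφs, at a mean of 8265 normalized counts per kb, followed by Lpl at 5268, Pla2g7 at 1848 and Fabp4 at 1178. Slc27a1 followed at 839.7, Slc27a4 at 193.4, Acsl1 at 118 and Fabp3 at 70.07 normalized counts per kb. Vldlr, at 3.973, and Lipg, at 1.485, were the lowest, and theirs were the only neighboring levels in this order whose ranges over 3 libraries overlapped. In LPS-stimulated PMφs the order of the levels per kb changed to Lpl at 5832, Fabp5 at 4606, Fabp3 at 2717, Pla2g7 at 2591, Acsl1 at 660.4, Slc27a1 at 357.2, Fabp4 at 249, Lipg at 222.3, Slc27a4 at 169.8 and Vldlr at 4.37. Fabp3 thus moved from below Acsl1 to beside Pla2g7, and Fabp4 moved below Slc27a1. The ranges of Lpl and Fabp5, of Fabp3 and Pla2g7, of Fabp4 and Lipg, and of Lipg and Slc27a4 overlapped in this group. In the oxLDL group the order was that of the controls, with Lpl at 6488 and Pla2g7 at 3219 normalized counts per kb and overlapping ranges. In the oxLDL+LPS group Pla2g7 reached 5567 normalized counts per kb, between Lpl at 6043 and Fabp5 at 4442, and these 3 ranges overlapped in neighboring pairs.

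Acsl1 encodes a long-chain acyl-CoA synthetase that traps fatty acids in the cell as acyl-CoA, and its LPS differences had the smallest standard errors among the 10 genes. Its normalized read counts were 1273, 1257 and 1182 in the control libraries, 1241, 1264 and 1174 with oxLDL, 6779, 6727 and 7263 with LPS, and 6918, 6491 and 6854 with oxLDL+LPS. The groups with and without LPS did not overlap, and the libraries within each group lay close together, with 1237.3 ± 48.58 in controls and 6923 ± 295.6 with LPS (SD, n = 3). By limma, on the scale of log2(value + 1) used for all differences below, Acsl1 rose by 2.48 with LPS in unloaded PMφs (SE 0.08, adjusted p = 4.286e-07), or 5.59-fold, and by 2.46 in oxLDL-loaded PMφs (SE 0.07, adjusted p = 5.939e-07). The oxLDL difference was -0.01 without LPS, with a 95% interval of -0.16 to 0.14, and -0.04 with LPS, with an interval of -0.26 to 0.19.

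Slc27a1 encodes a fatty acid transport protein of the membrane with acyl-CoA synthetase activity. Slc27a1 had normalized read counts of 4473, 5248 and 4978 in controls, 4520, 5316 and 4844 with oxLDL, 2274, 2326 and 1653 with LPS, and 2494, 2496 and 2248 with oxLDL+LPS. Every LPS library lay below every library without LPS. Slc27a1 fell by 1.25 on the log2 scale in unloaded PMφs (SE 0.15, adjusted p = 2.410e-04), or 2.37-fold, and by 1.02 in loaded PMφs (SE 0.09, adjusted p = 1.119e-04). Its oxLDL difference was close to 0 without LPS, with an interval of -0.21 to 0.21, and 0.23 with LPS (adjusted p = 0.777, and 0.144 with the replicate block).

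Slc27a4, which encodes another transport protein of the same family, had normalized read counts of 927, 818 and 815 in controls, 878, 879 and 784 with oxLDL, 729, 800 and 719 with LPS, and 799, 850 and 724 with oxLDL+LPS. The LPS libraries lay just below the control libraries, and the other groups overlapped. Its difference with LPS was -0.19 in unloaded PMφs (95% interval -0.41 to 0.04, adjusted p = 0.145) and -0.10 in loaded PMφs (adjusted p = 0.441). This result depended on the scaling. With every library scaled to the same total, the difference was -0.67 (adjusted p = 0.00143) and -0.49 (adjusted p = 0.00486), and with quantile normalization -0.39 (adjusted p = 0.0117) and -0.28 (adjusted p = 0.0505).

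Vldlr, the receptor for VLDL particles, was near the lower limit of measurement, with normalized read counts of 39, 64 and 17 in controls, 34, 53 and 20 with oxLDL, 62, 60 and 10 with LPS, and 53, 71 and 11 with oxLDL+LPS. Replicate number 3 was the lowest in 4 of 4 groups and all groups overlapped. The log2 differences were -0.08 for oxLDL, 0.05 for oxLDL+LPS against LPS, -0.05 for LPS and 0.08 for oxLDL+LPS against oxLDL, with standard errors of 0.53, 0.89, 0.75 and 0.69. Without the block, a change of Vldlr was not detectable at this spread. With the replicate block the standard errors for oxLDL were smaller, at 0.20 without LPS and 0.23 with LPS. The blocked intervals were -0.52 to 0.36 and -0.47 to 0.56, and neither difference was called. For LPS the blocked standard errors were 0.30 in unloaded and 0.33 in loaded PMφs, again without a call. In those LPS fits the block joined some libraries of different pools. The number 3 libraries were also those with the lowest mesothelial and fibroblast markers, given above, and the part of those cells in the Vldlr level was not tested.

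Of these uptake genes, Acsl1 occupies chromosome 8 from 46471037 to 46536051, Slc27a1 chromosome 8 from 71568882 to 71587302, Slc27a4 chromosome 2 from 29802634 to 29817522 and Vldlr chromosome 19 from 27216484 to 27254231, all on the plus strand of GRCm38 in the GENCODE vM21 annotation. RefSeq promoter sequence on GRCm38.p6 covered 6 of the 10 genes with 10 entries. The windows just before the annotated starts of Acsl1 and Slc27a1 are shown because these genes moved in opposite directions with LPS, and the window of Fabp3 is shown with them because it rose with Acsl1. They lie at chr8:46470787-46471036 and chr8:46490716-46490965 for Acsl1, at chr8:71568621-71568870 and chr8:71570344-71570593 for Slc27a1, and at chr4:130308488-130308594 for Fabp3, all on the plus strand, 5′ to 3′. Capitals mark matches to the GC box GGGCGG, searched on both strands.
Acsl1, first start: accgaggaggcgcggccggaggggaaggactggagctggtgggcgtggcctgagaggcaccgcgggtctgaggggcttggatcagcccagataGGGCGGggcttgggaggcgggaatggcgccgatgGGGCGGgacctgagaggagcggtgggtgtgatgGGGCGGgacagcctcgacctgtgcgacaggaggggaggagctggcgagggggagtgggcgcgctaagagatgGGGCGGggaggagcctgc
Acsl1, second start: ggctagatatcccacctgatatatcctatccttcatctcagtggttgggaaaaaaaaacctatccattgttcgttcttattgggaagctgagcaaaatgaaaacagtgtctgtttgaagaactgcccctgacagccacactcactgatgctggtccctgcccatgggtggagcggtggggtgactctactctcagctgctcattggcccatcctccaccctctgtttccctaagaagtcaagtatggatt
Slc27a1, first start: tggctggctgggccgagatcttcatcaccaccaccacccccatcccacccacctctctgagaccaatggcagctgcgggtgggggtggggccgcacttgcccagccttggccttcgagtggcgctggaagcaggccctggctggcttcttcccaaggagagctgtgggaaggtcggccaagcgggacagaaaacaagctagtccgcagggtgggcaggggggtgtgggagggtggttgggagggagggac
Slc27a1, last start: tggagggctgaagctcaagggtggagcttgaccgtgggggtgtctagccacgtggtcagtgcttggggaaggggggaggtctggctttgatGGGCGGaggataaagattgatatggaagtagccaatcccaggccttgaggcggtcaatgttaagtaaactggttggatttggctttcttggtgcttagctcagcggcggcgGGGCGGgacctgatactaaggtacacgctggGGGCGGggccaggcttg
Fabp3: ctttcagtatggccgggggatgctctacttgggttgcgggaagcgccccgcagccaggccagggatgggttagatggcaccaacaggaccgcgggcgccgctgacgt

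The first Acsl1 window held 4 GC boxes and the last Slc27a1 window held 3, whereas the other 3 windows held none. The second Slc27a1 entry is not shown because its window begins inside an exon, and it held 1 GC box. Also searched on both strands were AP-1 (TGANTCA), STAT (TTCNNNGAA), the antioxidant response element (TGACNNNGC), the nuclear receptor half-site AGGTCA, the PU.1 core GAGGAA and the NF-kB motif. None of these matched in the 5 windows shown. Over 32851 RefSeq promoters of 300 bases, a GC box was found in 35.7%, an AP-1 match in 7.81%, a STAT match in 8.3%, an antioxidant response element in 12.4%, the half-site in 16.3%, the PU.1 core in 28.3% and the NF-kB motif in 8.46%. The windows shown are shorter than those promoters, and a match is a description of the letters only.

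Fabp3 encodes the heart-type FABP. The libraries held Fabp3 at normalized read counts of 43, 68 and 62 in controls, 43, 68 and 32 with oxLDL, 1563, 3042 and 2104 with LPS, and 1287, 2796 and 1764 with oxLDL+LPS. All LPS libraries exceeded all libraries without LPS, and replicate number 2 had the highest value in 4 of 4 groups. Fabp3 rose by 5.23 on the log2 scale with LPS in unloaded PMφs (SE 0.27, adjusted p = 3.171e-06), or 37.4-fold, and by 5.32 in loaded PMφs (SE 0.35, adjusted p = 2.314e-05). Its oxLDL differences were -0.31 without LPS (95% interval -1.04 to 0.42) and -0.22 with LPS (SE 0.33, adjusted p = 0.92). With the replicate block the second of these had an adjusted p of 0.102, just outside the threshold of 0.1. Exons of Fabp3 (chromosome 4, 130308595 to 130315463, plus strand) overlap Zcchc17 on the opposite strand, which reached at most 337 normalized counts in any library.

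Fabp4, the adipocyte and macrophage FABP, moved the other way. Its normalized read counts were 4567, 5258 and 6040 in controls, 4981, 5450 and 5416 with oxLDL, 1237, 1141 and 975 with LPS, and 1168, 958 and 796 with oxLDL+LPS. The groups with and without LPS did not overlap. Fabp4 fell by 2.24 on the log2 scale with LPS in unloaded PMφs (SE 0.13, adjusted p = 7.198e-06), or 4.72-fold, and by 2.45 in loaded PMφs (SE 0.14, adjusted p = 1.137e-05), or 5.48-fold. Its oxLDL difference was 0.01 without LPS, with an interval of -0.24 to 0.26, and -0.21 with LPS (adjusted p = 0.808, and 0.137 with the replicate block). The adipocyte markers Adipoq, Plin1, Lep, Cidec, Cfd, Retn and Adrb3 were at 10 or below in every library.

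Fabp5, the epidermal FABP, fell less. Its normalized read counts were 28964, 28313 and 31171 in controls, 30761, 28591 and 28574 with oxLDL, 16254, 15674 and 17366 with LPS, and 17304, 15083 and 15148 with oxLDL+LPS. Again the LPS states did not overlap. With LPS, the log2 difference was -0.84 in unloaded PMφs (SE 0.11, adjusted p = 4.404e-04), or 1.79-fold, and in loaded PMφs the difference was -0.89 (SE 0.11, adjusted p = 4.785e-04). The oxLDL difference was -0.01 without LPS (95% interval -0.22 to 0.20) and -0.05 with it (-0.34 to 0.23). Fabp4 and Fabp5 are near neighbors on chromosome 3, at 10204088 to 10208576 on the minus strand and 10012548 to 10016607 on the plus strand. Of Fabp3, Fabp4 and Fabp5, the least abundant in resting PMφs, Fabp3, was thus higher with LPS, while the others were lower.

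Lpl, which encodes lipoprotein lipase (chromosome 8, 68880491 to 68907448, plus strand), had normalized read counts of 66530, 38838 and 60230 in controls, 73458, 49257 and 81229 with oxLDL, 71266, 49839 and 62226 with LPS, and 72110, 56712 and 61133 with oxLDL+LPS. All groups overlapped, and replicate number 2 was the lowest in 4 of 4 groups. Within each replicate number, oxLDL PMφs exceeded controls by 1.1, 1.27 and 1.35-fold. The difference was 0.31 on the log2 scale and did not pass the test without the block (SE 0.26, adjusted p = 1), but it passed with the block (SE 0.09, 95% interval 0.12 to 0.49, adjusted p = 0.0964). Without replicate number 1 or number 2 the blocked adjusted p was 0.374 or 0.639, so the call rested on single pairs. With LPS present the oxLDL difference of Lpl was 0.06 (95% interval with the block -0.26 to 0.38). The LPS difference was 0.17 in unloaded PMφs (adjusted p = 0.593) and -0.08 in loaded PMφs (adjusted p = 0.805). It depended on the scaling. With quantile normalization Lpl passed the test as lower, at -0.54 (adjusted p = 0.0836) and -0.63 (adjusted p = 0.049), and with every library at the same total it was -0.32 in unloaded PMφs (adjusted p = 0.297).

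Pla2g7 showed the largest oxLDL difference of the genes tested in unstimulated PMφs. Its normalized read counts were 5492, 3946 and 6665 in controls, 8287, 5596 and 14174 with oxLDL, 8877, 4638 and 9066 with LPS, and 19893, 6856 and 21767 with oxLDL+LPS. The groups overlapped in every comparison, although all controls lay below all oxLDL+LPS libraries. Replicate number 2 was the lowest in each group, but the oxLDL library exceeded its partner in every replicate number. The ratios were 1.51, 1.42 and 2.13 without LPS and 2.24, 1.48 and 2.4 with LPS. Without the block the differences of 0.73 (SE 0.33, adjusted p = 1) and 1.00 (SE 0.48, adjusted p = 0.731) did not pass the test. With the block Pla2g7 rose by 0.73 in unstimulated PMφs (SE 0.09, 95% interval 0.53 to 0.92, adjusted p = 0.00178), or 1.66-fold, and by 1.00 in LPS-stimulated PMφs (SE 0.13, 95% interval 0.70 to 1.29, adjusted p = 0.00619). The second call was lost without replicate number 1 (0.91, adjusted p = 0.116) and without number 3 (0.86, adjusted p = 0.362).

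The LPS difference of Pla2g7 was 0.46 in unloaded PMφs (adjusted p = 0.223) and 0.73 in loaded PMφs (adjusted p = 0.272). With the replicate number as a block these had adjusted p-values of 0.00833 and 0.0136, although the number 1 libraries compared there came from different pools. Without both number 1 libraries and without the block the differences were 0.34 (adjusted p = 0.525) and 0.46 (adjusted p = 0.649). The first was -0.03 with every library at the same total and -0.20 with quantile normalization, so its direction depended on the scaling. Without replicate number 2 of the LPS group it was 0.77 (adjusted p = 0.0215), and in loaded PMφs it was 1.26 (adjusted p = 0.0272) without number 2 of the oxLDL+LPS group. Pla2g7 lies on chromosome 17 from 43568098 to 43612201, plus strand, and overlaps 1700071M16Rik on the opposite strand, whose highest value was 383. Since Pla2g7 passed the blocked test for oxLDL both with and without LPS, its matches to STAT and to the antioxidant response element are shown beside 1 GC box not shown, with each match in capitals inside 29 bases of the plus strand, at chr17:43568296-43568324 and chr17:43568439-43568467. They start 145 and 2 bases before the RefSeq start and fall within a GENCODE exon.
Pla2g7, STAT match: tgttcagtgaTTCCGTGAActttgcggat
Pla2g7, antioxidant response element match, on the opposite strand: cgccccccagGCACAGTCAggatccacgc

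Lipg, which encodes endothelial lipase, a phospholipase of high-density lipoprotein, was almost silent without LPS. Its normalized read counts were 6, 8 and 7 in controls and 2, 5 and 2 with oxLDL, from 25 and 10 implied reads in total. With LPS they were 1337, 474 and 1334, and with oxLDL+LPS 90, 247 and 90. No group overlapped another. Lipg passed the filter on low values in the LPS comparisons only through its LPS libraries, so that it differed there follows in part from the filter. The difference was 6.89 on the log2 scale with LPS in unloaded PMφs (SE 0.40, adjusted p = 6.050e-06) and 5.07 in loaded PMφs (SE 0.50, adjusted p = 1.718e-04). From the summed reads, the ratio was 141 in unloaded PMφs (95% interval 95.2 to 218) and 47 in loaded PMφs (25.3 to 98.8), intervals that cover counting error only.

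In LPS-stimulated PMφs, oxLDL accompanied less Lipg RNA in every replicate number, by 14.9, 1.92 and 14.8-fold. Replicate number 2 stood apart in both groups, with the lowest Lipg of the LPS group and the highest of the oxLDL+LPS group. The difference was -2.90 on the log2 scale, which did not pass the test without the block (SE 0.53, adjusted p = 0.699) and passed with it (SE 0.46, 95% interval -3.94 to -1.86, adjusted p = 0.0103). The blocked call was lost without replicate number 1 (-2.41, adjusted p = 0.147) and without number 3 (-2.41, adjusted p = 0.371). Without LPS, Lipg was below the filter and was not tested for oxLDL. The ratio of its summed reads, 10 with oxLDL against 25 in controls, was 0.426 (95% interval 0.183 to 0.919). This interval covers counting error only and not the spread between libraries. Of the endothelial markers, 4 of 7 were at 10 or below in every library, and the 7 summed to 935 to 1356 with LPS and 679 to 1241 with oxLDL+LPS, and the part of such cells in the Lipg level was not tested. Lipg lies on chromosome 18 from 74939322 to 74961263, minus strand.

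**Figure D2:**
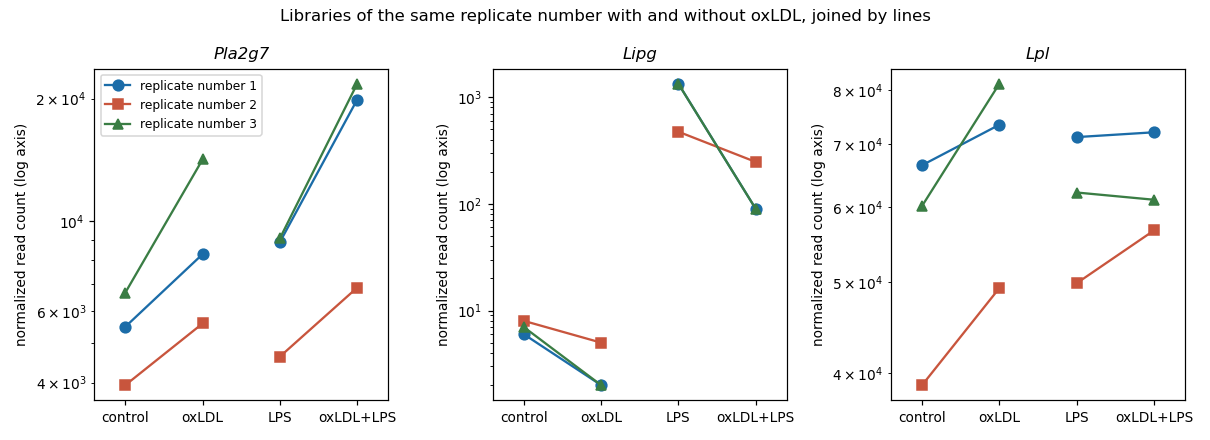
Normalized read count (y axis, log scale) of Pla2g7, Lipg and Lpl in the 4 groups (x axis), with libraries of the same replicate number with and without oxLDL joined by a line and each symbol 1 library. The Pla2g7 lines rise in all 6 pairs. The Lipg lines fall in all 6, those without LPS at only 2 to 8 normalized counts. The Lpl lines rise in the 3 pairs without LPS and in 2 of the 3 pairs with LPS.

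Counted over the whole group in the oxLDL comparison, 0 of the 9 genes tested were called at an adjusted p under 0.1 without the block, where 0 of 12734 genes of the table were called (0%) and 379 had an unadjusted p under 0.05. With the block 2 of 9 were called, both higher, against 1.79% of genes called higher and 2.91% called lower. In LPS-stimulated PMφs oxLDL gave 0 calls among the 10 without the block, again with 0% of 12769 genes called and 890 at an unadjusted p under 0.05, and 1 of the 10 had such an unadjusted p. With the block 1 gene was called higher and 1 lower, against 4.41% and 8.75% of genes. The median absolute log2 difference was 0.01 for the 9 genes and 0.08 for all genes in the first comparison, and 0.14 against 0.15 in the second.

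LPS called 3 of the 10 genes higher and 3 lower in unloaded PMφs, where it called 31.4% of 13006 genes higher and 30.3% lower. In loaded PMφs the counts were again 3 and 3, against 28.1% and 26.3% of 12883 genes. With the block, Pla2g7 was added to the higher genes in each, against 34.6% higher and 34.1% lower in unloaded and 32.0% and 31.4% in loaded PMφs. With the values as deposited, the shares of calls were therefore close to those of the table. The median absolute log2 difference was larger, at 1.04 for the 10 genes and 0.54 for all genes in unloaded PMφs, and 0.95 against 0.46 in loaded PMφs. The genes were chosen with earlier results of these data known, so this contrast only describes them. The median and the higher calls cover Lipg, which passed the filter only through its LPS libraries. With at least 10 in every library, Lipg was not tested. Of the 9 genes left, 2 were called higher and 3 lower in each, against 63% of all genes called in unloaded and 56.1% in loaded PMφs. The medians were then 0.84 against 0.49 and 0.89 against 0.42. The split of calls depended on the scaling, since 4087 of 8025 called genes were higher with LPS in unloaded PMφs, 2205 of 9395 with every library at the same total and 3239 of 8048 with quantile normalization. In loaded PMφs it was 3626 of 7015, 2052 of 8666 and 2844 of 7115. The 6 called genes kept their direction under both scalings. With every library at the same total, 7 of the 10 genes were called in each, 3 higher and 4 lower. The share of all genes called was then 72.2% in unloaded and 67.3% in loaded PMφs. With quantile normalization 8 of the 10 were called in each, 3 higher and 5 lower, against 61.9% and 55.2% of all genes. Without both number 1 libraries, Lipg was not tested, and Fabp3 (5.26), Acsl1 (2.52), Fabp4 (-2.42), Fabp5 (-0.85) and Slc27a1 (-1.38) were still called in unloaded PMφs. In loaded PMφs the values were 5.54, 2.45, -2.64, -0.92 and -1.10. The genes that were not called stood at -0.11 and -0.08 for Slc27a4, 0.20 and -0.10 for Lpl, 0.34 and 0.46 for Pla2g7 and -0.40 and -0.20 for Vldlr, and none of them was called without these libraries either.

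**Figure D3:**
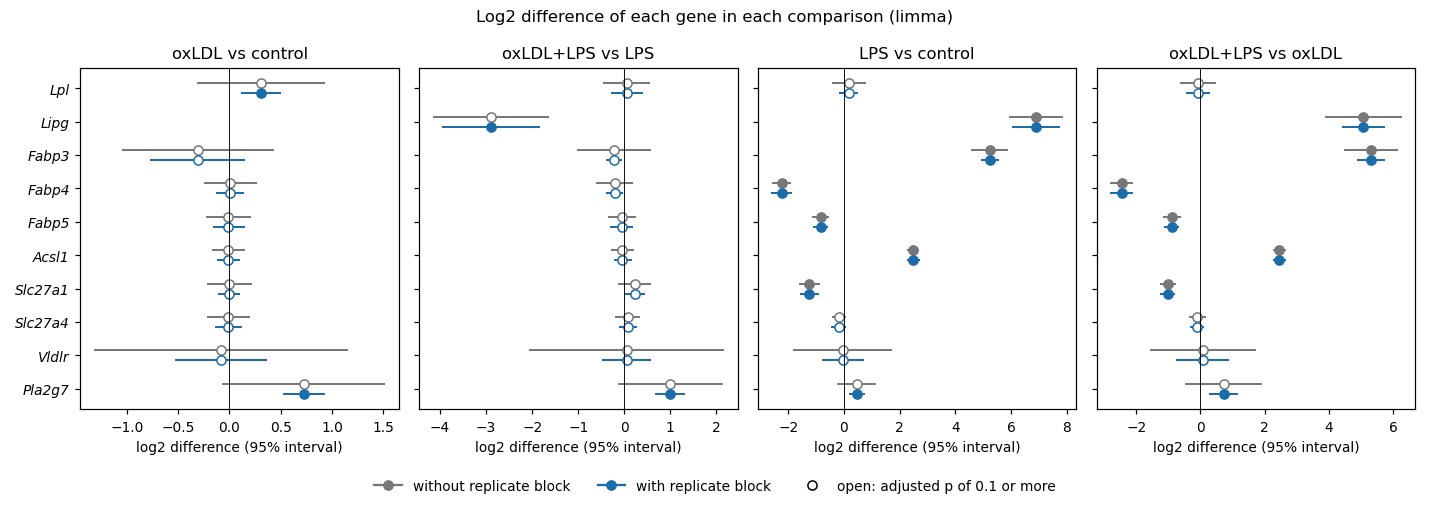
Log2 difference (x axis, with a 95% interval from limma) of each gene (y axis) in the 4 comparisons, without the replicate block in gray and with it in blue; filled symbols have an adjusted p under 0.1. For LPS the filled symbols of Lipg, Fabp3 and Acsl1 lie above 0 and those of Fabp4, Fabp5 and Slc27a1 below 0, whereas for oxLDL only blocked values of Lpl, Pla2g7 and Lipg are filled.

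Whether the oxLDL difference itself depended on LPS was tested as an interaction over all 12 libraries. None of the 10 genes was called, with or without the block. Neither was any of 13465 genes (0% and 0%), although 416 without and 967 with the block had an unadjusted p under 0.05. Lipg came closest, with an interaction of -1.82 (SE 0.69, unadjusted p = 0.0217, adjusted p = 1, and 0.67 with the block). The oxLDL difference of Lipg without LPS that enters it rests on 25 implied reads in controls and 10 with oxLDL. With a separate block for each LPS state, which allows for the different number 1 pools, the adjusted p of the Lipg interaction was 0.256. That fit called none of the 10 genes but 140 of 13465 genes of the table (1.04%), 51 higher and 89 lower. For Pla2g7 the interaction was 0.27, with a 95% interval of -1.15 to 1.69 without and -0.31 to 0.85 with the block. The oxLDL differences of Pla2g7 with and without LPS were thus not shown to differ. Without the block the interval was narrowest for Acsl1, at -0.23 to 0.19.

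As a description of likeness, the gene outside the group whose log2 values followed each member most closely over the 12 libraries was sought among 9423 genes with a mean of at least 100. The libraries fall into LPS states, so a gene that responds to LPS is matched mainly by others that do. Pearson's r was 0.9995 for Acsl1 with Isg15, 0.9985 for Fabp3 with Tapbp, 0.9976 for Fabp4 with Hpgds, 0.9954 for Slc27a1 with Sec22c, 0.9943 for Fabp5 with Pla2g15 and 0.9911 for Lipg with Klf7. For the genes not called with LPS it was 0.9857 for Pla2g7 with Blvrb, 0.9361 for Lpl with 2700029M09Rik, 0.9356 for Vldlr with Slc20a2 and 0.9154 for Slc27a4 with Dtd2.

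Genes that work beside these 10 were read from 5 lists. In the transport and activation list, 8 of 13 genes were tested. Cd36, the scavenger receptor that takes up oxLDL and fatty acids, had normalized read counts of 40346, 32725 and 36968 in controls, 67666, 53483 and 93423 with oxLDL, 26396, 28348 and 27635 with LPS, and 59206, 41849 and 64548 with oxLDL+LPS. Every oxLDL library exceeded every library of its comparison group. With the block Cd36 rose by 0.93 (adjusted p = 0.00178) and by 0.98 in LPS-stimulated PMφs (adjusted p = 0.0099), beside Pla2g7 at 0.73 and 1.00. Acsl3, an acyl-CoA synthetase like Acsl1, fell by 0.71 (adjusted p = 0.0159) and by 0.59 with LPS present (adjusted p = 0.0227). Neither passed without the block. With LPS present, the blocked calls of both were lost without replicate number 1 (adjusted p = 0.167 and 0.198) and without number 3 (0.362 and 0.369), and Acsl3 without LPS was lost without number 1 (0.125). With LPS in unloaded PMφs, 2 genes of the list rose and 4 fell, with a median of -0.20 against 0.00 for all genes and beside 31.4% of genes called higher and 30.3% lower. They included the synthetases Acsl5, at 1.37, and Acsl4, at 0.88, and the transport protein Slc27a6, at -3.95 (adjusted p = 8.841e-05).

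Of 10 other FABPs, 2 were tested, and Fabp7, the brain-type FABP, fell with LPS by 0.72 while it rose by 0.27 with oxLDL under the block (adjusted p = 0.0364). The first call of Fabp7 was lost without control library 1 or 3 or LPS library 1 or 2 (adjusted p = 0.16, 0.143, 0.119 and 0.135) and without both number 1 libraries (-0.49, adjusted p = 0.282). The second was lost without number 1 (adjusted p = 0.117) and number 2 (0.312). Among the lipase partners, 8 of 17 genes in the table were tested for oxLDL and 1 was called, with the block. This was Angptl4, a secreted inhibitor of lipoprotein lipase, whose normalized read counts were 180, 119 and 157 in controls and 478, 231 and 495 with oxLDL. It rose by 1.34 (adjusted p = 4.017e-04). With LPS present, Angptl4 had 137, 132 and 52 without and 154, 158 and 73 with oxLDL and was not called, and it fell with LPS in loaded PMφs, by 1.64 (adjusted p = 0.0115). Furin, a protease that cleaves lipases and their regulators, rose with LPS by 1.41 and fell by 0.64 with oxLDL in LPS-stimulated PMφs under the block (adjusted p = 0.00619), a call lost without number 1 (0.127) and number 3 (0.34). In the LPS comparison of unloaded PMφs this list had 2 genes higher and 1 lower of 7 tested, beside 31.4% and 30.3% of all genes, and the call of Lmf2 (0.32), a homolog of the lipase maturation factor, turned to -0.16 with every library at the same total and was lost in 3 of the 6 fits that left out 1 library.

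All 9 genes of the PAF turnover list, the pathway of Pla2g7, were tested, and LPS called 5 higher and 4 lower in unloaded PMφs, with a median of 0.63, beside 31.4% of all genes called higher and 30.3% lower. Lpcat2, which makes PAF, rose by 2.84 (adjusted p = 6.985e-07) and Pla2g4a, which releases its precursor, by 2.43. The lower genes were led by Pla2g15, with means of 3788.3 in controls and 1191.7 with LPS, and Pafah2, an intracellular acetylhydrolase, fell by 1.25. Other acetylhydrolase genes of the list were called in both directions, so these genes do not show a shift of the pathway in 1 direction. With oxLDL 1 gene of this list was called under the block, Lpcat1 at -0.28 (adjusted p = 0.0688, and 0.258 without number 2). With LPS present Pafah2 rose by 0.81 (adjusted p = 0.0109) and Pla2g4a fell by 0.30 under the block. Both calls were lost without number 1 (adjusted p = 0.146 for Pafah2 and 0.382 for Pla2g4a) and without number 3 (0.362 and 0.417).

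Of the lipid-sensing receptors and their coactivators, 9 of 10 were tested. LPS called 3 higher and 5 lower in unloaded PMφs, Ppargc1a among the latter, with a median of -0.93, beside 31.4% of all genes called higher and 30.3% lower. Pparg, which encodes a nuclear receptor for fatty acids and their derivatives, had normalized read counts of 1232, 1230 and 1284 in controls, 1193, 1227 and 997 with oxLDL, 81, 123 and 109 with LPS, and 109, 112 and 103 with oxLDL+LPS. Pparg fell by 3.59 with LPS (adjusted p = 1.613e-06). The coactivator gene Ppargc1a stood at -3.53, with 45, 85 and 67 normalized counts in controls and 4, 6 and 4 with LPS, and passed the filter only through the controls, so its difference follows in part from the filter. Rxra stood at -1.25 and Nr1h3, which encodes liver X receptor α, at 0.92. For oxLDL no gene of this list was called without LPS, and with LPS Rxra rose by 0.40 under the block, a call lost without number 1 (adjusted p = 0.361) and number 3 (0.407). Without both number 1 libraries, the LPS calls of Slc27a6 (-3.78), Acsl5 (1.41), Acsl4 (0.85), Furin (1.44), Lmf2 (0.38), Lpcat2 (2.80), Pla2g4a (2.47), Pafah2 (-1.26), Pparg (-3.43), Rxra (-1.17) and Nr1h3 (0.94) in unloaded PMφs and of Angptl4 in loaded PMφs (-1.64) still passed.

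**Figure D4:**
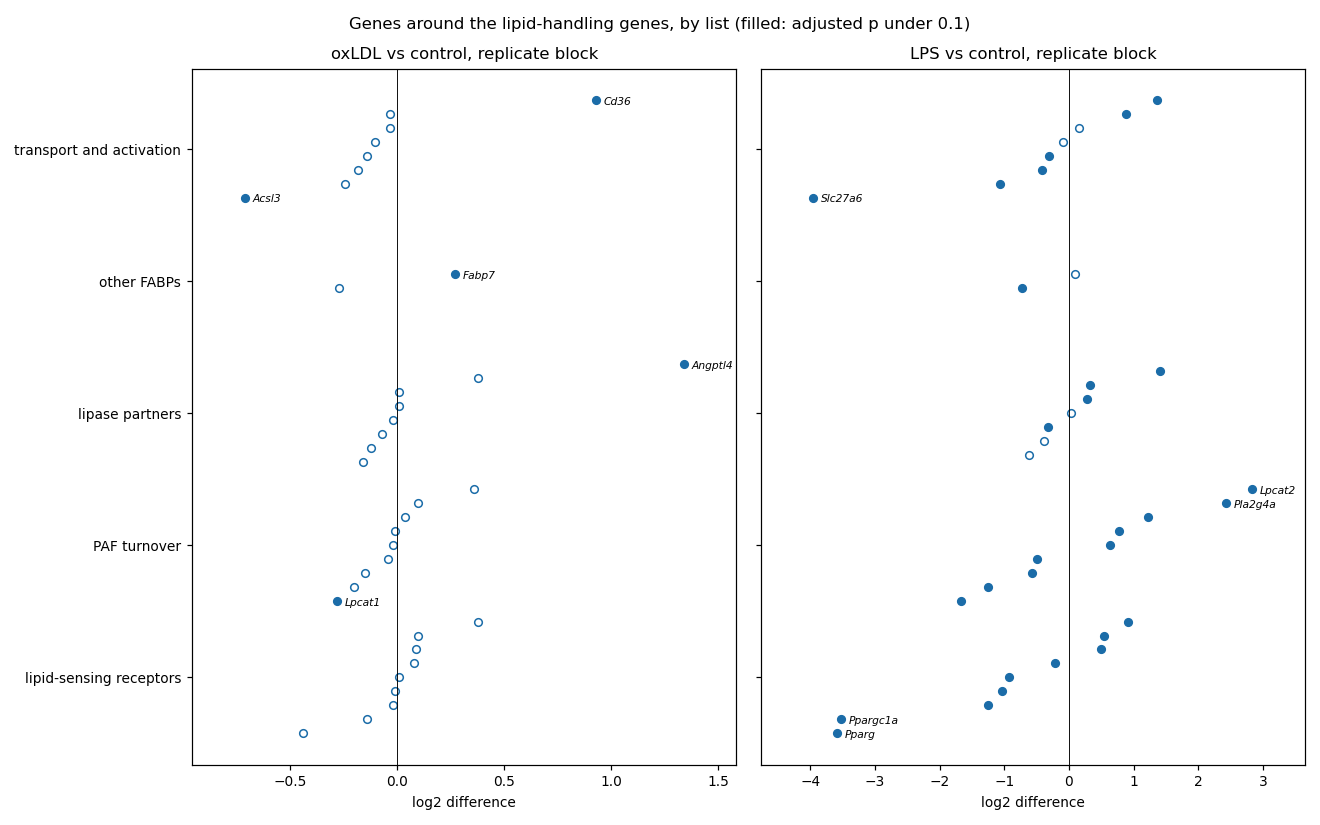
Log2 difference with the replicate block (x axis) of each tested gene of the 5 lists (y axis) for oxLDL (left) and for LPS (right) against control; each circle is 1 gene, filled where the adjusted p was under 0.1. For oxLDL most circles lie near 0 and the filled ones include Angptl4 at 1.34 and Acsl3 at -0.71, and for LPS the range runs from Slc27a6 at -3.95 to Lpcat2 at 2.84.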

How the data were processed

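Poly(A) RNA of 12 PMφ libraries was sequenced. Per the labels and the study's methods, the authors used Trimmomatic 0.32 for trimming, STAR 2.5.1b for alignment to the mouse genome (mm10, that is GRCm38) and featureCounts for counting over GENCODE vM4. The deposited signal values are counts that the authors divided by 1 factor per library and rounded; the factors were recovered from the table. The strand setting of the counting was not given in the sources used here. Of 43278 rows, 25 whose symbol had become a date were left out (at most 0.165% of a library), and 18273 of the rows were at 0 in every library.

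Genes that reached 10 in 3 or more libraries of a comparison were tested on log2(value + 1) with limma 3.58.1 (lmFit, eBayes with a trend) in R 4.3.3, two-sided, on the 6 libraries of the 2 groups, or on 12 for the interaction. P-values were adjusted by Benjamini-Hochberg over all genes tested and called at an adjusted p under 0.1. The script was tested on simulated data. By the study's methods the pooled cells were divided among the groups, which the number 1 libraries do not follow across LPS states. Nothing else shows the libraries to be independent cultures, so p-values measure the spread between these libraries. Deviations of same-numbered libraries from their group means correlated at 0.629 to 0.711 in the oxLDL comparisons and 0.283 to 0.610 in the LPS comparisons, whereas libraries of different numbers correlated at most at 0.028. Deviations from a group mean cancel, which holds the values for different numbers low. The number 1 pairs of the LPS comparisons, from different pools, still correlated at 0.358 and 0.283, so a positive value alone does not show a shared pool. The pairing of the oxLDL comparisons thus rests on the labels and on the higher correlations there. In the LPS comparisons number 1 joined libraries of different pools, by their Xist values, so there the block is a hint only. A blocked fit, with a term for each number, is given where it changes a call.

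The 10 genes, the 5 lists and the marker lists were chosen with earlier results of these data known. A list with a gene that is not reported here was left out. Of each list, at most 4 called genes per comparison could be named, by smallest p, plus for each of the 10 genes the most correlated other gene. The alternatives were the block, the filter, a pseudocount of 5, 2 other scalings, all 12 libraries in each fit and leaving out each library or pair. Leaving out both number 1 libraries and a block within each LPS state were chosen after seeing the data. Lengths are merged exons of GENCODE vM21.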

Additional observations from a re-analysis of the deposited data

How the results depend on the processing

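The number of the 10 genes called for oxLDL depended on the replicate block. Against control, it was 0 without the block and 2 with it. The blocked count was 0 with no filter on low values and with all 12 libraries in the blocked fit, 1 with at least 10 in every library or with quantile normalization, and 1 to 2 without 1 replicate number. Over all 12 libraries the block joins number 1 with and without LPS, although these libraries came from different pools. In LPS-stimulated PMφs it was 0 without the block, 2 with it, 2 with all 12 libraries in the blocked fit, 0 with no filter, 0 to 1 when 1 library was left out and 0 to 4 when 1 number was left out of the blocked fit. The blocked interaction called 0 to 1 when a number was left out, the 1 being Lipg without number 2 (adjusted p = 0.0717). Over all genes, the blocked oxLDL fits called 599 and 1680, against 0 and 0 with no filter, 416 and 963 with quantile normalization, 5 and 1015 with all 12 libraries, and 129 to 1283 and 0 to 2945 without 1 number. The blocked split in LPS-stimulated PMφs was 563 higher of 1680, and 1011 of 1577 at the same total. Fitted to the 6 libraries of a comparison, the block changed no LPS call of the 10 genes other than adding Pla2g7, and with all 12 libraries it also added Slc27a4 in unloaded PMφs (-0.19, adjusted p = 0.0436).

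With every library at the same total and with quantile normalization, in that order, the following differences changed sign. With oxLDL in LPS-stimulated PMφs, Fabp5 became 0.04 and 0.09 and Acsl1 0.06 and 0.12. With LPS in unloaded PMφs, Lpl became -0.32 and, past the threshold, -0.54 (adjusted p = 0.0836; in loaded PMφs -0.63, adjusted p = 0.049), Pla2g7 -0.03 and -0.20 with or without the block, and blocked Sel1l, a chaperone partner of lipases, -0.20 and -0.34. At the same total only, Lmf2 became -0.16 in unloaded and -0.07 in loaded PMφs and Vldlr -0.30 in loaded PMφs. With quantile normalization only, Vldlr became 0.12 in unloaded PMφs. For the interaction, Fabp5 became 0.05 and 0.12 and Acsl1 0.07 and 0.11. Vldlr was -0.20 in loaded PMφs without both number 1 libraries.

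When 1 library was left out, differences near 0 changed sign. For oxLDL against control the ranges were -0.09 to 0.11 for Fabp4, -0.04 to 0.03 for Fabp5, -0.05 to 0.02 for Acsl1, -0.04 to 0.05 for Slc27a4 and -0.58 to 0.35 for Vldlr. For oxLDL+LPS against LPS they were -0.08 to 0.18 for Lpl, -0.52 to 0.04 for Fabp3 and -0.78 to 0.84 for Vldlr. For LPS against control they were -0.07 to 0.32 for Lpl and -0.55 to 0.78 for Vldlr, and for oxLDL+LPS against oxLDL -0.29 to 0.07 and -0.42 to 0.87. For the interaction they were -0.05 to 0.01 for Acsl1, -0.20 to 0.38 for Fabp3, -0.05 to 0.80 for Pla2g7 and -0.70 to 0.92 for Vldlr. The cause of these changes was not tested. Vldlr rested on 139, 115, 130 and 121 implied reads in the control, oxLDL, LPS and oxLDL+LPS groups. Resting Lipg rested on 25 in controls and 10 with oxLDL.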
